A study of Mus musculus with 73 samples.

Results

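The XiteE deletion was compared with wild type by 5C, in which each count is a ligation product joining the fragment of a forward primer to that of a reverse primer, as a measure of how often these fragments met in fixed nuclei. The comparison rested on the 4 libraries titled XiteE-del 1, XiteE-del 2, WT 1 and WT 2, of 73 samples in the series and of 10 5C libraries with processed files used here, and took in all primer pairs. XiteE-del cells were derived from the male mouse embryonic stem cell line E14Tg2a (129/Ola, XY), and the WT cells were E14 cells without an edit. Both were kept feeder-free on gelatin, in medium with serum and leukemia inhibitory factor, and edited clones were made with CRISPR plasmids or TALENs. The labels do not say whether XiteE-del 1 and 2 are separate clones or cultures. The p-values therefore measure only a spread between libraries, which the 10-library fits pool over 5 genotypes. The sources used here do not say what the letter E in XiteE means. A 5C library holds no RNA, so the labelled cell type could not be checked against marker genes.

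The X-inactivation centre holds Xist, the noncoding RNA that coats and silences an X chromosome, and its antisense gene Tsix, which keeps Xist low in embryonic stem cells. Xite is an enhancer and noncoding transcription unit just upstream of the promoter of Tsix. The promoters of Xist and Tsix lie in neighbouring topologically associating domains, stretches of chromatin whose fragments meet each other more often than they meet fragments outside. In the annotation used for gene order, Nap1l2, Cdx4, Chic1, Tsx, Tsix, Xist, Jpx, Ftx, Zcchc13 and Rlim lie in this order. That table is of another build than the 5C files (mm9), so its positions were not used, and bins and fragments are given below by their mm9 positions alone.

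The primers covered X:98831149-103425147 (4.59 Mb) with 511 forward and 528 reverse primers, which allow 269808 pairs, and a further 26 forward and 26 reverse primers lay on chromosome 5. The XiteE-del libraries held 18742548 and 23928188 counts, and the WT libraries 16811959 and 16267499. XiteE-del detected 136576 and 133999 of the X pairs, against 156724 and 145686 in WT. The reads carry no molecular identifiers, so counts are not independent molecules. WT 2 carried another B code in its label (B101) than WT 1 and both XiteE-del libraries (B100), a code whose meaning the labels do not give. Of the counts between X primers, 35.1% and 35.5% joined fragments under 50 kb apart in XiteE-del, against 35.9% in WT 1 and 45.9% in WT 2. Fragments over 1600 kb apart made up 13.3% and 12.6% in XiteE-del, against 13.5% in WT 1 and 4.73% in WT 2. XiteE-inv 2, the other library with the code B101, had 49.2% and 4.50%, close to WT 2. Ligation between X and chromosome 5, a measure of products that join unlinked fragments, took 1.72% and 1.56% of the counts in XiteE-del, against 1.71% in WT 1 and 0.282% in WT 2. The results below are therefore given for all 10 libraries, with the B code as a term of the fit, and for the 8 libraries with the code B100, where WT is a single library assumed to vary like the other genotypes.

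**Figure D1:**
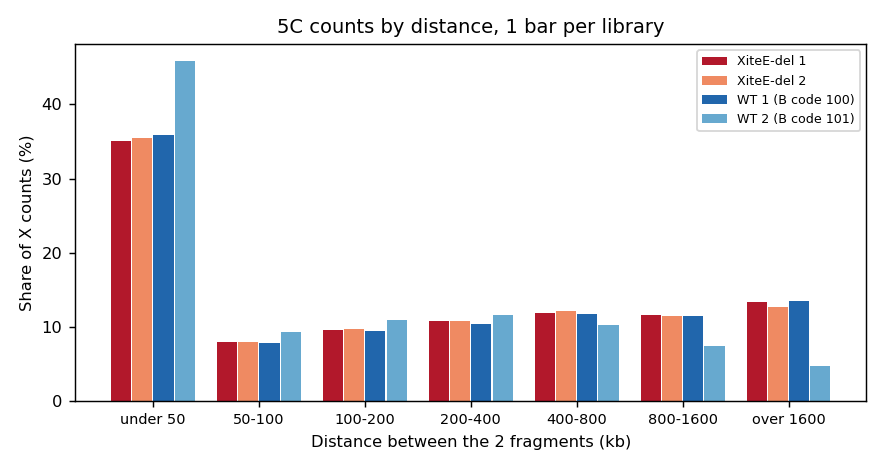
Share of the counts between X primers (%) in 7 classes of distance between the fragments (kb), with 1 bar for each XiteE-del and WT library. The bars of XiteE-del 1, XiteE-del 2 and WT 1 lie close together in every class, while WT 2 is higher under 50 kb (45.9%) and lower over 1600 kb (4.73%).

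The deletion was visible as fragments that had lost nearly all their counts. A fragment was called lost when its primer had at least 200 counts in each WT library and its share of the library total was under 5% of the mean WT share in both XiteE-del libraries. This held for 2 adjoining fragments among the 1021 X primers with that many WT counts. The reverse primer of X:100623271-100629519 had 645 and 659 counts in XiteE-del, against 9805 and 13309 in WT. The forward primer of X:100629520-100633845 had 1208 and 935 counts in XiteE-del, against 43077 and 49644 in WT. Together they span 10.6 kb. Both XiteE-del libraries lay far below both WT libraries at each of them.

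The adjoining fragment X:100618973-100623270 kept 13.5% and 14.4% of its mean WT share in XiteE-del, with 1145 and 1552 counts against 7154 and 7780 in WT, and is included under a limit of 20%, which gives 3 fragments and 14.9 kb. The other 1018 such primers kept between 40.0% and 167% of their mean WT share, as a mean of the 2 XiteE-del libraries. The XiteC-del libraries, which carry another deletion of the same locus, kept at least 93.8% of the mean WT share at both lost fragments. They had instead lost X:100636563-100639613, with 3.23% and 3.61% of the mean WT share, where XiteE-del kept 85.8% and 89.5%. The 2 deletions were thus told apart by the counts, as their labels have them. These fragments were chosen by their counts, so their values are a description with no test.

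**Figure D2:**
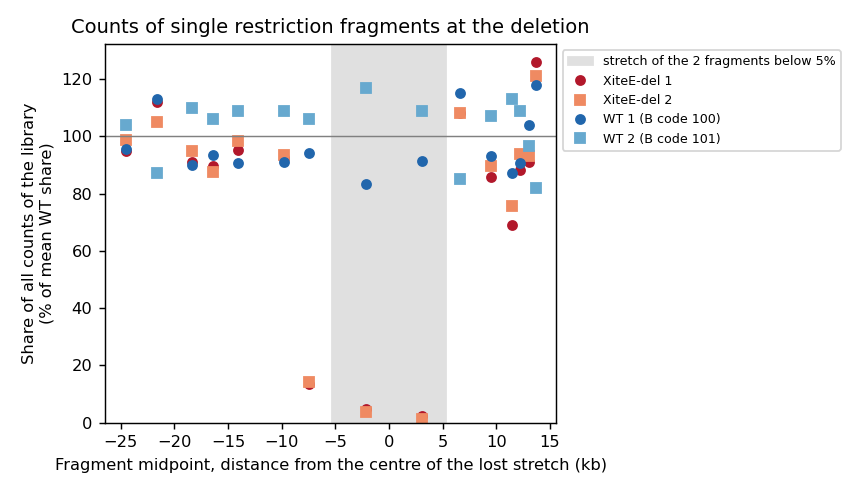
Share of each primer in its library's total counts, as % of the mean share in WT, against the distance of its fragment from the centre of the lost stretch (kb), with 1 point for each library. The 2 XiteE-del libraries fall to between 1.39% and 4.91% within the grey stretch and to 13.5% and 14.4% at the fragment left of it, and lie at 69.1% or above at the other fragments shown.

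Single fragment pairs were tested with edgeR's quasi-likelihood test on raw counts over the 10 libraries, 1 mean per genotype, for the 105453 pairs whose mean over libraries reached 20 counts. After Benjamini-Hochberg adjustment 1 pair was higher and 77 were lower in XiteE-del, which is 0.074% of the pairs tested. Of the 77, 74 had a primer on 1 of the 3 fragments just described, and 64 of these had one on the 2 lost fragments, of 288 such pairs tested. The pair of X:100629520-100633845 with X:100639614-100640516 had 4 and 5 counts in XiteE-del, against 1541 and 1803 in WT (log2 change -8.86 ± 0.47 SE, adjusted p 4.67e-08). These pairs involve the fragments that defined the deletion, so their falls are no separate result.

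The other 4 called pairs were far from the deletion or across it, and each had few counts or none in 1 genotype. X:102604559-102611541 with X:102435914-102440371 had 0 and 1 counts in XiteE-del, against 122 and 142 in WT. X:100812572-100820558 with X:100455324-100468776 had 1 count in each XiteE-del library, against 85 and 219 in WT. X:101091274-101091336 with X:101132923-101136757 had 1 count in each XiteE-del library, against 248 and 134 in WT. The only rise, X:101493279-101499444 with X:101030681-101035460, had 219 and 192 counts in XiteE-del, against 0 in both WT libraries. It had 263 and 9 counts in XiteE-inv, 245 and 183 in XiteC-del, and 353 and 323 in XiteC-inv. WT was thus below every other library here, and the XiteE-del counts were not particular to that genotype. Pairs with at most 1 count were common in the XiteE-del and WT libraries. Of the 105107 tested pairs without a lost fragment, 25.4% and 16.8% had at most 1 count in XiteE-del, against 22.5% and 13.7% in WT. Whether missing ligation products had a part in these 4 calls was not tested.

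To compare larger stretches, counts were summed over domains. Borders were placed at local minima of an insulation score in the 6 libraries of XiteE-inv, XiteC-del and XiteC-inv, none of which are XiteE-del or WT. The score is the log2 of the mean count per primer pair across a border over the mean on its 2 sides. It gave 10 domains of 240 to 720 kb, numbered here by rising position. Domain 5 (X:100410001-100650000, 31 forward and 31 reverse primers) holds the lost fragments at its upper end. Below it lie domain 4 (X:100170001-100410000), domain 3 (X:99690001-100170000) and domain 2 (X:99420001-99690000), and above it lies domain 6 (X:100650001-101370000). The lost fragments were left out of all domain counts and totals, but the fragment that kept 13.5% and 14.4% of its WT share stayed in them.

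Domain 5 had more counts with domain 3, below it, in XiteE-del than in WT. Domain 5 with domain 3 had 3844 and 3711 CPM (counts scaled to a common library total) in XiteE-del, against 2656 and 2634 CPM in WT. The mean was 3777 ± 93.8 CPM in XiteE-del and 2645 ± 15.5 CPM in WT (SD, n = 2 each), and both XiteE-del libraries lay above the 8 libraries of the other genotypes, which ran from 2461 to 3004 CPM. With edgeR over 57 domain pairs, the log2 change was 0.51 ± 0.18 SE with an adjusted p of 0.653. When the B code was a term, it was 0.47 with an edgeR adjusted p of 0.0325, and over the 8 libraries of B code 100 it was 0.51 with an edgeR adjusted p of 0.0479. The change thus had nearly the same size in all 3 fits and passed the threshold of 0.05 only in those that took the B code into account.

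Across all 57 domain pairs the 10-library fit called 0 pairs (0.0%), with 1 pair at an unadjusted p under 0.05, and DESeq2 called 0 as well. With the B code as a term it called 1 pair (1.75%), domains 3 and 5, and so did the fit of 8 libraries (1.75%). Both XiteE-del libraries lay above all 8 others in 4 of the 57 pairs (7.02%), those of domain 5 with domains 1, 2, 3 and 9, and below all 8 others in 0 (0.0%). The coefficient of variation of the counts between libraries of a genotype was 33.9% in the first fit, against 6.97% with the B code as a term.

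Domain 5 with domain 2 had 2545 and 2680 CPM in XiteE-del, against 2118 and 1639 CPM in WT (log2 change 0.48, edgeR adjusted p 0.653, and 0.29 with an edgeR adjusted p of 0.295 under the B code term). Here too both XiteE-del libraries lay above all 8 others, but neither fit called the difference. Domain 5 with domain 4 had 8309 and 8654 CPM in XiteE-del, against 7020 and 8661 CPM in WT. The groups overlapped, and the direction of this difference turned with the scaling (log2 change 0.11, against -0.13 with TMM scaling). With an offset for each class of distance it was called higher (log2 change 0.23, edgeR adjusted p 0.0187).

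Contacts that span domain 5 depended on the fit. Of the 20 pairs of a domain below it with one above it, 19 had a log2 change above 0 in the 10-library fit (-0.18 to 0.68 over the 20), whereas with the B code as a term 19 were below 0 (-0.28 to 0.04), and neither fit called any of them. The 1 pair below 0 in the 10-library fit was domain 4 with domain 6, which had 6637 and 6736 CPM in XiteE-del, against 7667 and 7533 CPM in WT. The 2 groups did not overlap, with a log2 change of -0.18 (edgeR adjusted p 0.653) and -0.26 under the B code term (edgeR adjusted p 0.295). XiteC-inv had 6674 and 6832 CPM for this pair, XiteE-inv 7876 and 6567 CPM, and XiteC-del 8563 and 8325 CPM. The level of XiteE-del was thus close to that of XiteC-inv. Within domain 5 there were 33933 and 35595 CPM in XiteE-del, against 37428 and 47510 CPM in WT (log2 change -0.29, edgeR adjusted p 0.653). WT 2 was the highest of the 4 libraries, and the change was -0.08 when the B code was a term. Domain 5 with domain 6 had 19625 and 19723 CPM in XiteE-del, against 19788 and 16730 CPM in WT, and its direction differed between fits (log2 change 0.11, and -0.06 with the B code as a term).

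The own contacts of all 10 domains were lower in XiteE-del than in the WT mean in the 10-library fit, with log2 changes from -0.29 to -0.08, and lay between -0.08 and 0.08 with the B code as a term. The lowest adjusted p among them was 0.653 with edgeR, and 0.946 under the B code term.

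**Figure D3:**
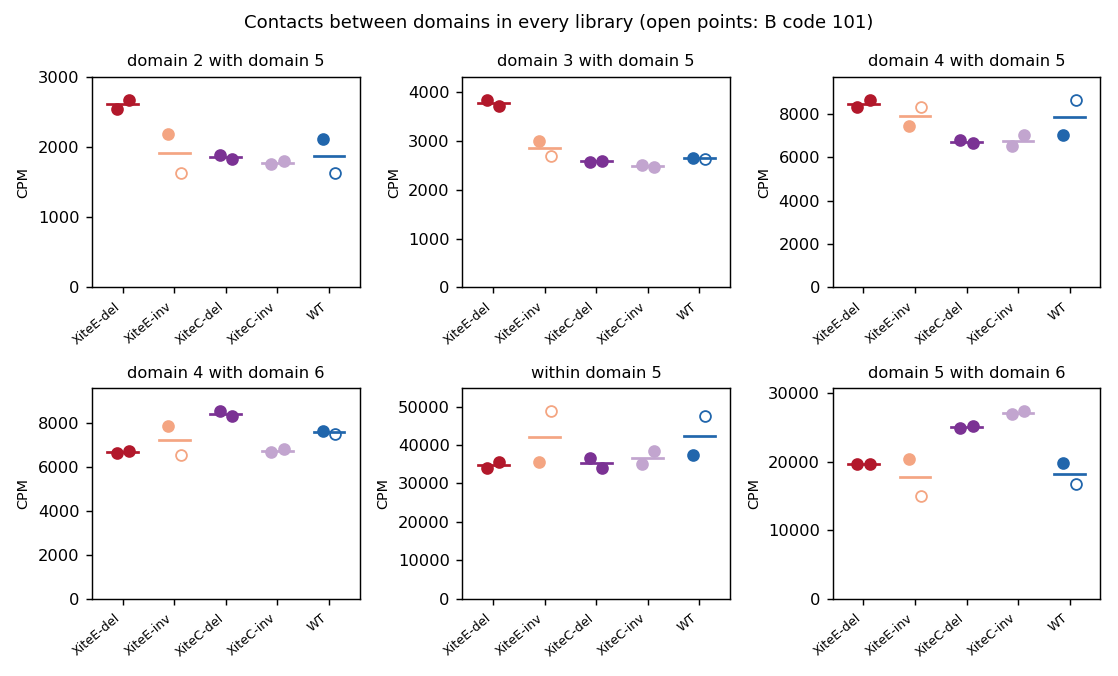
Scaled counts (CPM) for 6 pairs of domains in every 5C library, with the 5 genotypes on the horizontal axis, points for libraries, open points for the 2 libraries of the other B code (WT 2 and XiteE-inv 2) and lines for means. For domains 2 and 5 and for domains 3 and 5 both XiteE-del points lie above the points of all other genotypes.

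**Figure D4:**
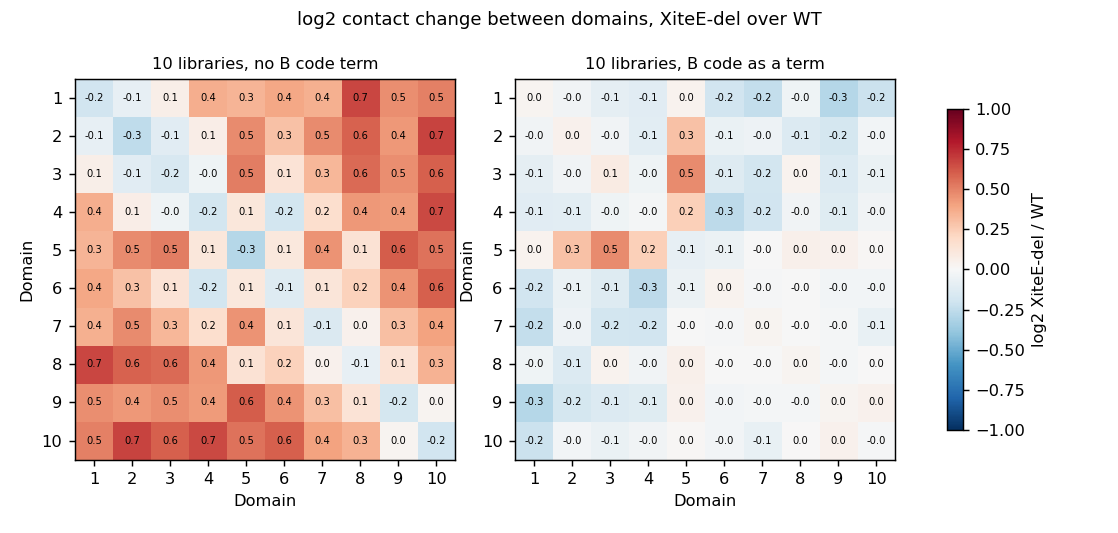
log2 change in counts between all pairs of the 10 domains, XiteE-del over WT, from the 10-library fit (left) and from the fit with the B code as a term (right); red is higher in XiteE-del. On the left, most pairs of distant domains are red, while on the right the pairs of domain 5 with domains 2, 3 and 4 are at 0.29, 0.47 and 0.24 and the lowest, domains 1 and 9, is at -0.28.

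The share of its contacts that domain 5 gave to each side was also computed. Of the X counts of domain 5, 19.7% and 19.5% went to domains 1 to 4 in XiteE-del, against 16.3% and 16.9% in WT. The 2 groups did not overlap, and WT 1 and WT 2 were alike in this share. The share within domain 5 was 35.1% and 35.5% in XiteE-del, against 38.4% and 50.8% in WT. It was 36.8% and 34.5% in XiteC-del, 33.8% and 35.8% in XiteC-inv, and 36.6% and 52.6% in XiteE-inv. The share to domain 6 was 20.3% and 19.7% in XiteE-del, against 20.3% and 17.9% in WT, so that WT 1 lay within 1 percentage point of both XiteE-del libraries.

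At 30 kb, the difference was larger in the part of domain 5 next to the deletion. The bin X:100590001-100620000, which holds the undeleted fragments just below the lost stretch, had 839 and 880 CPM with domain 3 in XiteE-del, against 474 and 441 CPM in WT. With domain 4 it had 1599 and 1686 CPM in XiteE-del, against 930 and 1144 CPM in WT, and with domain 2 it had 528 and 577 CPM, against 309 and 269 CPM in WT. In all 3 cases both XiteE-del libraries lay above all 8 others, and the ratio of the means was 0.91, 0.66 and 0.93 on the log2 scale. The bin X:100620001-100650000, counted without the lost fragments it holds, had 867 and 784 CPM with domain 3 in XiteE-del, against 539 and 527 CPM in WT. With domain 4 it had 1808 and 1759 CPM in XiteE-del, against 1392 and 1619 CPM in WT.

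Across domain 5 the difference was not confined to these bins. With domain 3, 7 of its 8 bins had both XiteE-del libraries above all 8 others, with ratios of the means from 0.21 to 0.91 on the log2 scale. The bin X:100440001-100470000, for example, had 659 and 641 CPM in XiteE-del, against 549 and 400 CPM in WT. The exception, X:100410001-100440000, at the opposite end of domain 5 from the deletion, had 337 and 304 CPM in XiteE-del, against 274 and 321 CPM in WT. Toward domain 6 the bin X:100590001-100620000 had 3008 and 3001 CPM in XiteE-del, against 2663 and 3051 CPM in WT, and the groups overlapped. In 2 of the 8 bins both XiteE-del libraries lay below all 8 others with domain 6. These were X:100410001-100440000, with 837 and 973 CPM in XiteE-del, against 1039 and 1338 CPM in WT, and X:100470001-100500000, with 1149 and 954 CPM in XiteE-del, against 1206 and 1468 CPM in WT. Of the 32 combinations of a bin of domain 5 with a domain at lower positions, 14 had both XiteE-del libraries above all 8 others and 0 had both below. Over the whole region 7.0% of 1314 combinations of a bin with another domain lay above and 1.6% below. Of the 40 combinations of domain 5 bins with domains at higher positions, 4 lay above and 2 below.

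**Figure D5:**
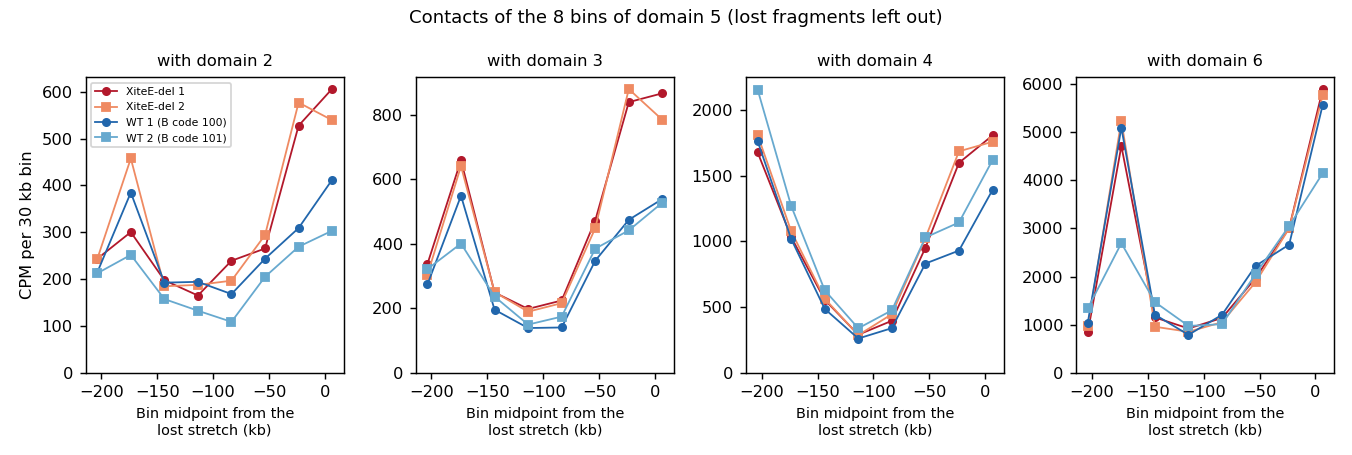
Scaled counts (CPM) of each of the 8 bins of 30 kb in domain 5 with domains 2, 3, 4 and 6, against the distance of the bin's midpoint from the centre of the lost stretch (kb), with 1 line per library. With domains 2, 3 and 4 the 2 XiteE-del lines lie above both WT lines in the 2 bins at the right (839 and 880 against 474 and 441 CPM with domain 3 in the bin left of the deletion). With domain 6 no bin has both XiteE-del libraries above all 8 others.

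The primers that flank the lost stretch were read one by one. The nearest forward primer below it that kept its counts, on X:100613219-100615704, gave 6.59% and 8.93% of its X counts to domain 4 in XiteE-del, against 3.82% and 3.52% in WT. It gave 3.84% and 3.27% to domain 3 in XiteE-del, against 1.42% and 1.04% in WT. The nearest reverse primer below it that kept its counts, on X:100618507-100618972, gave 7.04% and 7.73% to domain 4 in XiteE-del, against 3.22% and 3.72% in WT. For both primers below the deletion the shares of domain 4 in XiteE-del lay above those in WT, and their shares within domain 5 were lower (71.3% and 68.0% against 78.5% and 81.1% in WT for the forward primer). Within domain 5 the forward primer had 74.0% and 72.3% in XiteC-del and 71.0% and 68.5% in XiteC-inv. XiteE-inv had 79.6% and 83.6%. The lower share within domain 5 was thus not particular to XiteE-del.

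On the upper side, the forward primer on X:100636563-100639613 gave 7.17% and 7.03% to domain 4 in XiteE-del, against 4.24% and 5.02% in WT, and 15.5% and 15.3% to domain 6, against 14.4% and 15.6% in WT. The nearest reverse primer, on X:100633846-100636562, gave 4.71% and 4.68% to domain 4 in XiteE-del, against 2.50% and 5.77% in WT, and 2.99% and 1.91% to domain 3, against 1.28% and 3.24% in WT. For this primer the groups overlapped, with WT 2 the highest in both shares. Across the deletion, the pair X:100613219-100615704 with X:100633846-100636562, which lie 20.7 kb apart in the undeleted sequence, had 43.0 and 54.9 CPM in XiteE-del, against 24.7 and 35.3 CPM in WT. The pair X:100636563-100639613 with X:100618507-100618972 had 57.0 and 63.2 CPM in XiteE-del, against 28.9 and 52.4 CPM in WT. Both junction pairs were thus higher in both XiteE-del libraries than in either WT library. The DNA between them is shorter in XiteE-del, and the part of that shorter distance in the other differences was not tested.

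Pairs of 30 kb bins were tested in the same way. Of 11769 pairs whose mean over libraries reached 10 counts, the 10-library fit of edgeR called 0 (0.0%), while 254 were higher and 147 lower at an unadjusted p under 0.05. DESeq2 called 7 higher and 4 lower. With the B code as a term edgeR called 2 higher and 3 lower (0.0425%), and over the 8 libraries of B code 100 it called 5 higher and 4 lower (0.0765%). The 3 lower pairs with the B code as a term all include the bin X:100620001-100650000, in counts that hold the lost fragments. Of the 2 higher, X:103080001-103110000 with X:103410001-103440000 had 16.2 and 19.2 CPM in XiteE-del, against 0.833 in WT 1 and 25.2 in WT 2. The calls over the 8 libraries rest on WT 1 alone. X:99120001-99150000 with X:101910001-101940000, 1 of them, had 0.373 and 0.0836 CPM in XiteE-del, against 19.5 in WT 1 and 0.307 in WT 2. The coefficient of variation between libraries was 62.1%, against 47.9% with the B code as a term.

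Of the 5 rises with the smallest p in the 10-library fit, 3 joined the bin X:100590001-100620000 to bins of domains 2, 3 and 4. With X:100170001-100200000, the first bin of domain 4, it had 492 and 544 CPM in XiteE-del, against 239 and 305 CPM in WT, and the other 6 libraries held 196 to 289 CPM. The log2 change was 0.93 ± 0.21 SE with an edgeR adjusted p of 0.978, and 1.11 with an edgeR adjusted p of 0.00934 under the B code term. With X:100080001-100110000 in domain 3 it had 165 and 134 CPM in XiteE-del, against 50.7 and 56.5 CPM in WT (log2 change 1.48, edgeR adjusted p 0.978, and 0.184 under the B code term). With X:99660001-99690000 in domain 2 it had 83.6 and 101.2 CPM in XiteE-del, against 11.7 and 33.2 CPM in WT. The groups did not overlap in either of these last 2 pairs, and neither was called with the B code as a term. Over the 8 libraries of B code 100 the pair with domain 2 was called (log2 change 2.99, edgeR adjusted p 0.0367), and the pair with domain 3 was not (edgeR adjusted p 0.133).

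The other 2 rises lay elsewhere. X:99120001-99150000 with X:101070001-101100000 had 25.9 and 26.6 CPM in XiteE-del, against 2.38 and 6.02 CPM in WT. XiteE-inv had 21.6 and 8.35 CPM, XiteC-del 21.7 and 23.0 CPM, and XiteC-inv 24.4 and 23.4 CPM. X:100980001-101010000 with X:103140001-103170000 had 41.3 and 23.5 CPM in XiteE-del, against 7.49 and 3.07 CPM in WT. XiteE-inv had 35.7 and 11.5 CPM, XiteC-del 22.2 and 20.8 CPM, and XiteC-inv 20.1 and 17.2 CPM. In both pairs the WT libraries were thus lower than every other library. Both were pairs of low counts between distant domains, and neither was called with the B code as a term. The first was called over the 8 libraries (log2 change 3.46, edgeR adjusted p 0.0376), and the second by DESeq2 (log2 change 2.49, adjusted p 0.047).

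Among the 5 falls with the smallest p, 2 lay close to the deletion. X:100170001-100200000 with X:100710001-100740000, which joins domain 4 to domain 6 across domain 5, had 98.5 and 82.2 CPM in XiteE-del, against 157 and 220 CPM in WT (log2 change -1.06, edgeR adjusted p 0.978). XiteC-inv was at a like level, with 89.0 and 95.6 CPM, while XiteE-inv had 132 and 171 CPM and XiteC-del 141 and 153 CPM. X:100470001-100500000 with X:100650001-100680000 had 179 and 168 CPM in XiteE-del, against 266 and 328 CPM in WT (log2 change -0.78, edgeR adjusted p 0.978). XiteC-inv had 188 and 206 CPM, XiteE-inv 257 and 261 CPM, and XiteC-del 413 and 338 CPM. In both the XiteE-del libraries lay below both WT libraries, and neither passed the threshold with the B code as a term (edgeR adjusted p 0.353 for each). The other 3 falls, between distant bins, had under 1 CPM in both XiteE-del libraries, against 3.75 to 10.7 CPM in WT, and rested on 4 to 22 primer pairs each. Each of these 3 passed the threshold in 1 of 15 alternatives, and none did so with the B code as a term.

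Contacts of the bin that holds the lost fragments with its own domain were lower in XiteE-del than in WT. X:100620001-100650000 with X:100560001-100590000 had 674 and 748 CPM in XiteE-del, against 1296 and 1701 CPM in WT. The log2 change was -1.08 (edgeR adjusted p 0.978, and 0.00672 under the B code term), and -0.75 when the lost fragments were left out of both genotypes. This pair had 424 and 469 CPM in XiteC-inv, 703 and 628 CPM in XiteC-del, and 1142 and 1503 CPM in XiteE-inv. Counts below WT in this pair were thus not particular to XiteE-del. The fragment that XiteC-del lost, X:100636563-100639613, lies in the same bin, so the XiteC-del counts include missing DNA of their own. Within the bin itself there were 2159 and 2307 CPM in XiteE-del, against 3522 and 4316 CPM in WT (log2 change -0.81, edgeR adjusted p 0.978, and -0.52 without the 2 lost fragments). XiteE-inv, XiteC-del and XiteC-inv held 2767 to 4318 CPM within the bin. This fall within the bin was called with the B code as a term (-0.57, edgeR adjusted p 0.0186). Over the 8 libraries its log2 change was -0.66. Counts of both pairs include the fragments that defined the deletion, so the calls of these falls are no separate result. Without the lost fragments, the 10-library fit called neither fall (edgeR adjusted p 0.976), and the adjoining fragment that had lost most of its counts stayed in. The B code term was not fitted to these pairs without the lost fragments.

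Taken by domain, the 30 kb pairs of domain 3 with domain 5 had a median log2 change of 0.41 over 80 pairs, against 0.17 over all 11769. With the B code as a term the medians were 0.47 and -0.01. In 35 of the 80 pairs (43.8%) both XiteE-del libraries lay above both WT libraries, against 22.3% of all pairs, and in 4 (5.0%) both lay below, against 10.6% of all pairs. For domains 2 and 5 the median was 0.35 over 72 pairs, with 38.9% above and 5.56% below. For domains 4 and 6 the median was -0.30 over 143 pairs, with 6.29% above and 37.1% below. The shares over all pairs pool all distances. Among other domain pairs with 1 domain between them, domains 2 and 4 had 11.1% above and 29.6% below. Domains 1 and 3 had 19.1% above and 12.6% below.

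The insulation score, which falls as a border is crossed less often, was compared at 141 borders between 30 kb bins with limma. The 10-library fit called 0 (0.0%), with 4 higher and 0 lower at an unadjusted p under 0.05. With the B code as a term 3 were lower (2.13%), and over the 8 libraries of B code 100 there were 8 higher and 4 lower (8.51%). At X:100650000, the border between domains 5 and 6 beside the deletion, the score was -3.16 and -3.14 in XiteE-del, against -3.30 and -3.36 in WT. The difference was 0.19 ± 0.12 SE (limma adjusted p 0.914), and 0.08 under the B code term (limma adjusted p 0.982). All 9 domain borders had a higher score in XiteE-del in the 10-library fit, by 0.07 to 0.20, against a median of 0.09 over all borders, and the lowest limma adjusted p among them was 0.914.

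Within domain 5 the score at X:100470000 was -2.02 and -1.94 in XiteE-del, against -2.33 and -2.26 in WT, and at X:100500000 it was -1.57 and -1.48 in XiteE-del, against -1.81 and -1.78 in WT. At both borders the XiteE-del libraries lay above all 8 others, and the limma adjusted p was 0.914 over 10 libraries, 0.273 at each with the B code as a term, and 0.0225 and 0.023 over the 8 of B code 100. The 3 borders that were lower with the B code as a term adjoin each other in domain 3. At X:100020000 the score was -1.96 and -2.01 in XiteE-del, against -1.57 in WT 1 and -2.05 in WT 2, so the groups overlapped, with a difference of -0.39 under that term (limma adjusted p 0.000647).

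XiteE-del was also set against the most similar genotypes directly, without WT in the contrast. Against XiteE-inv, the inversion with the same name, edgeR called 0 of 11769 bin pairs over the 10 libraries (0.0%), with 404 higher and 113 lower at an unadjusted p under 0.05, and 3 higher and 1 lower with the B code as a term (0.034%). The 1 lower pair, X:100560001-100590000 with X:100620001-100650000, includes the bin of the lost fragments, in counts that hold them. The bin pair X:100170001-100200000 with X:100590001-100620000 was among the higher ones, at 492 and 544 CPM in XiteE-del, against 229 and 289 CPM in XiteE-inv (log2 change 1.18, edgeR adjusted p 0.0081 under the B code term). Of the domain pairs edgeR called 0 (0.0%) against XiteE-inv in both fits, and domains 3 and 5 differed by 0.37 on the log2 scale with an edgeR adjusted p of 0.191 under the B code term.

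Against XiteC-del, whose libraries both carry the code B100, edgeR called 0 bin pairs (0.0%) over the 10 libraries, with 98 higher and 161 lower at an unadjusted p under 0.05, and 13 higher and 12 lower with the B code as a term (0.212%). Of the domain pairs it called 0 (0.0%), and 6 with the B code as a term (10.5%). Domain 5 was higher in XiteE-del with domains 1, 2, 3 and 4, by 0.36, 0.49, 0.55 and 0.34 on the log2 scale. Domain 6 was lower in XiteE-del with domain 5 and with domain 4, by -0.35 and -0.34. Domain 5 with domain 6 had 19625 and 19723 CPM in XiteE-del, against 24938 and 25267 CPM in XiteC-del. WT had 19788 and 16730 CPM for this pair, and XiteC-inv 26879 and 27385 CPM, so XiteC-del lay above WT. Domain 4 with domain 6 had 6637 and 6736 CPM in XiteE-del and 8563 and 8325 CPM in XiteC-del, with WT between them at 7667 and 7533 CPM. XiteC-del lacks a fragment of domain 5 that was not left out of these counts, and the part of that missing DNA in the differences was not tested.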

How the data were processed

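The 5C files hold raw counts per pair of forward and reverse primers, as deposited by the authors. Per the submitters' processing notes, Bowtie2 (no version) and mm9 were used. The sources used here do not give the restriction enzyme. Fragment positions come from the deposited primer lists, shown 1-based. The other 63 samples of the series were not used here. Groups were taken from sample titles.

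Counts were summed over 30 kb bins and domains and scaled to library totals. They were tested with the quasi-likelihood test of edgeR 4.0.16 in R 4.3.3, with 1 fit of 10 libraries and a mean for each of 5 genotypes (5 residual degrees of freedom, 4 with the B code as a term). Insulation scores (5 bins on each side) were tested with limma 3.58.1, and DESeq2 1.42.0 was the alternative tool. All p-values were adjusted by Benjamini-Hochberg over all pairs or borders, with a threshold of 0.05. The code was checked on simulated counts. Exact permutation tests of 2 libraries against 2 cannot go below p = 0.333. For each of the 7 distance classes the exact two-sided p was 0.333 or 1.

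Named bin pairs are the 5 rises and 5 falls with the smallest p whose XiteE-del libraries lie beyond both WT libraries, leaving out bins with lost fragments. Fragment pairs are those called without a lost fragment. Profiles of bins with domains were added after seeing the data. Members, lists and rules were chosen with earlier results of these data known.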

Additional observations from a re-analysis of the deposited data

How the results depend on the processing

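Of domain pairs against WT, domains 3 and 5 were the 1 pair called in the fits that allow for the B code. Their log2 change ran from 0.23 to 0.54 over 11 alternatives, above 0 in each, with edgeR or DESeq2 adjusted p from 0.0325 to 0.997. TMM scaling shifted the named domain pairs by -0.22 and the named bin pairs by -0.19 on the log2 scale, and DESeq2 by -0.28 and -0.22. Domains 4 and 5 turned to -0.13 (TMM), -0.20 (DESeq2) and, without 1 replicate, ran from -0.0301 (without WT replicate 1) to 0.27. Domains 5 and 6 turned to -0.10 (TMM), -0.16 (DESeq2), -0.0597 (B code term), and -0.00832 without WT replicate 2 and over the 8 libraries of B code 100, an alternative chosen after seeing the data. The cause was not tested.

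Bin pairs called higher and lower numbered 7 and 4 with DESeq2, 0 and 2 with an offset per distance class, 2 and 3 with the B code term, and 5 and 4 over 8 libraries. The 2 lower pairs with the distance offset and the 3 with the B code term all include the bin of the lost fragments. For XiteE-inv the B code term gave 3 and 1, for XiteC-del 13 and 12. With an offset per distance class, with the B code term, and over 8 libraries, 1 domain pair was called higher. Borders called lower were 3 with the B code term; 8 higher and 4 lower were called over 8 libraries. Fragment pairs called higher numbered 0 with a mean of at least 50 counts, 12 with the B code term, 19 over 8 libraries and 0 to 43 without 1 replicate. Over 4 libraries 0 were higher and 35 lower, against 52 to 106 lower without 1 replicate. In 9 of the 12 and 15 of the 19 without a lost fragment, WT 1 had at most 1 count. Without pairs under 30 kb apart, the difference between XiteE-del and WT in the share of counts moved to -1.93, -2.09 and -1.75 percentage points at 50 to 100, 100 to 200 and 200 to 400 kb. In each of these classes both XiteE-del libraries lay above WT 1 and below WT 2. At 50 to 100 kb, for example, they had 11.23% and 11.43%, against 11.15% in WT 1 and 15.36% in WT 2.

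The differences of replicate 1 minus replicate 2 in XiteE-del and in WT correlated at 0.0555 over 11769 bin pairs. WT 1 and WT 2 also differ in B code, so this value cannot show whether libraries of the same replicate number were handled together. The replicate block gave 0 called bin pairs, domain pairs and borders, and 4 higher and 79 lower fragment pairs. A single WT library of each B code limits the comparisons with WT, and the coefficient of variation of fragment pairs between libraries was 121%.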
